A study of Drosophila melanogaster with 6 samples.

Results

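The small heat shock protein genes of *Drosophila melanogaster* were followed in RNA from whole embryos aged 16 to 20 h. Of 8 genes listed for the family, 7 were found by gene name among the 17208 genes of the count table: *Hsp22*, *Hsp23*, *Hsp26*, *Hsp27*, *Hsp67Ba*, *Hsp67Bc* and *l(2)efl*. The eighth, *Hsp67Bb*, is entered there under its other name, CG4456, and is described as an overlapping neighbour. The mutant embryos carried ftfd5-5 over ftX13, a pair of alleles that the series treats as null for the cadherin gene *fat* (*ft* null, 4 libraries). The controls were w1118, the common laboratory strain whose *white* gene is partly deleted (2 libraries). Both were kept at 25 °C on grape agar plates, and the labels name no heat treatment. The family was chosen by its levels in these libraries and its difference between the genotypes, so every member's level and fold change here is a description and carries no test.

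Small heat shock proteins are chaperones built around an alpha-crystallin domain. They assemble into large oligomers and, without using ATP, hold unfolding proteins until Hsp70 and its Hsp40 partners can refold them. In flies most of the family sits in the 67B cluster on the left arm of chromosome 3, where heat shock factor, the product of *Hsf*, switches the genes on after heat or other protein damage. The same genes are also used in development without stress, and some respond to the steroid hormone ecdysone.

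The libraries held 21261928 to 29151981 estimated counts. Levels are given as CPM, the count scaled to a common library size. Late embryo genes (*Mhc*, *elav*, *repo*, *verm*, *serp* and *ple*) summed to 14340 to 16830 CPM in *ft* null. In w1118 replicates 1 and 2 they summed to 10600 and 16760 CPM, so the controls differed. The sum hides genes that went opposite ways. All mutant values lay above both controls for *verm* (3130 to 4570 against 2220 and 3020 CPM). They lay below both for *ple* (102 to 136 against 152 and 150 CPM). *Mhc*, *elav*, *repo* and *serp* overlapped between genotypes, and none of the late genes was called by edgeR. Early embryo genes (*bcd*, *ftz*, *eve*, *nullo*, *Sry-alpha* and *bnk*) summed to 15.2 to 23.9 CPM in *ft* null and to 24.4 and 20.1 CPM in w1118, with *nullo* at 0 in 4 of the 6 libraries. Of these, *bnk* was lower in *ft* null (5.42 to 7.21 CPM against 12.4 and 12.5 CPM, edgeR adjusted p = 0.0223), while *bcd*, *eve* and *Sry-alpha* were not called. *ft* itself had 28.6 to 32.2 CPM in *ft* null and 43.2 and 46.3 CPM in w1118. Strain background and the *ft* alleles cannot be told apart in this design, nor can a difference in embryo age or handling between collections. In whole embryos, fewer cells of a type and less RNA per cell cannot be told apart either. Whether each library was a collection of its own, and how mutant embryos were picked, is not in the labels.

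The 7 genes fell into different patterns. *Hsp22*, *Hsp23*, *Hsp26*, *Hsp27* and *Hsp67Ba* ranged widely among the *ft* null libraries, from 59.9% to 94.3% of the control mean in replicate 1 to 1.58% to 12.4% of it in replicate 4. *Hsp67Bc* was at about the same reduced level in each mutant library. *l(2)efl* stood at the same level in both genotypes. This division was made after the values were seen. In the fit across all genes, 1 of the 7, *Hsp67Bc*, was called lower in *ft* null at an adjusted p under 0.05, and 2.15% of the 11542 genes tested were called lower. DESeq2 and limma voom also called *Hsp67Bc* alone among the members, and called 3.92% and 2.33% of all genes lower. All 4 mutant values lay below both controls for 4 of the 7 members and for 16.4% of all genes tested. The family was chosen on this contrast, so nothing is read from these counts. The median log2 fold change was -1.26 over the 7 genes and 0.01 over all genes tested.

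**Figure D1:**
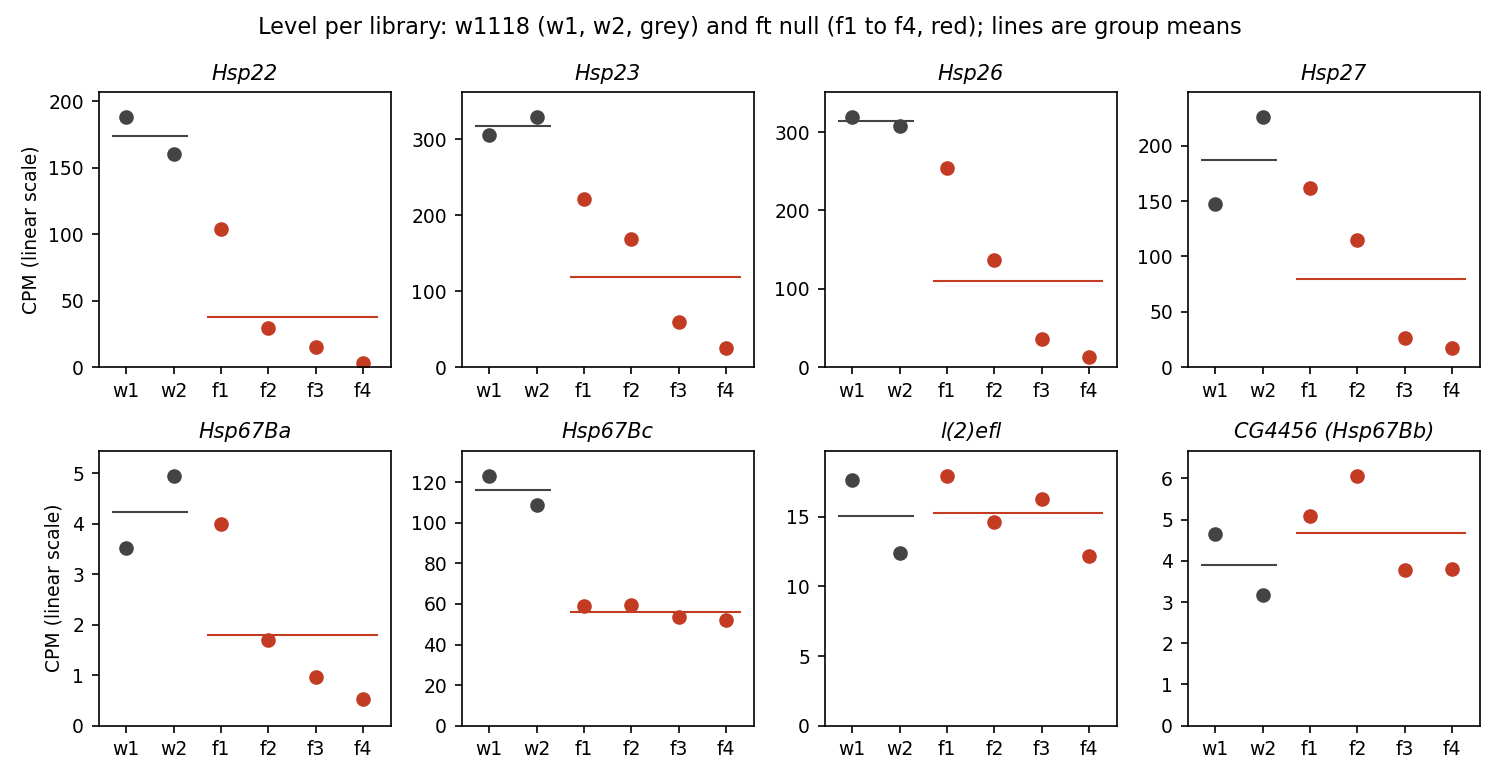
CPM in each library (y axis, linear, starting at 0) for the 7 small heat shock genes and for CG4456, which is *Hsp67Bb*; grey points are w1118 replicates 1 and 2, red points *ft* null replicates 1 to 4, and lines the group means. *Hsp67Bc* shows 4 mutant values between 51.9 and 59.6 CPM, whereas *Hsp26* runs from 12.7 to 255 CPM among the mutants.

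Among the cytosolic chaperones, *Hsp23* was the most abundant member per length of transcript in w1118. It stood at 306 and 329 CPM in w1118 replicates 1 and 2, and at 221, 169, 59.2 and 25.8 CPM in *ft* null replicates 1 to 4. All 4 mutant values lay below both controls, and replicate 4 was 8.55-fold below replicate 1. The means were 119 ± 91.5 CPM (SD, n = 4) and 318 ± 16.6 CPM (SD, n = 2), and the log2 fold change was -1.42 (SE 0.676).

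*Hsp26*, a second cytosolic member, spread further among the mutants. It held 319 and 308 CPM in w1118, and 255, 137, 35.5 and 12.7 CPM in *ft* null. The groups did not overlap, and *ft* null replicate 1 reached 81.2% of the control mean. The mutant mean was 110 ± 111 CPM against 314 ± 8.09 CPM, a log2 fold change of -1.51 (SE 0.897).

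*Hsp27* encodes a member found mainly in the nucleus. Its 2 control libraries, at 148 and 226 CPM, differed more from each other than those of *Hsp23* or *Hsp26*. The mutants stood at 161, 115, 26.2 and 17.6 CPM. Here the genotypes overlapped, because *ft* null replicate 1 lay above w1118 replicate 1. The log2 fold change was -1.23 (SE 0.767).

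*Hsp22*, whose product works in the mitochondrial matrix, had the widest range of the family. It stood at 188 and 160 CPM in w1118 and at 104, 29.3, 15.5 and 2.76 CPM in *ft* null, so that the highest mutant library was 37.8-fold above the lowest. In estimated counts the mutants held 2195, 642, 371 and 79. All mutant values lay below both controls. The log2 fold change of -2.20 (SE 0.972) was the most negative of the 7.

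*Hsp67Ba*, the longest coding sequence in the family at 1335 bases, was scarce in every library. It stood at 3.51 and 4.95 CPM in w1118 and at 3.99, 1.69, 0.963 and 0.524 CPM in *ft* null. The genotypes overlapped through *ft* null replicate 1, and the lowest library rested on 15 estimated counts. Its log2 fold change was -1.26 (SE 0.638). An antisense RNA gene, asRNA:CR43481, shares 1316 exon bases with it on the other strand, and the library kit does not mark strand, so reads of the pair cannot be told apart where they overlap. That gene stood at 1.20 and 1.24 CPM in w1118 and at 0.76, 0.73, 0.168 and 0.175 CPM in *ft* null.

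In these 5 genes the *ft* null libraries kept a single order, with replicate 1 highest, then 2, 3 and 4. Of all genes tested, 7.94% had that order. The libraries were also placed by principal components of log2 CPM over all genes tested. *ft* null replicates 1 to 4 stood in the same sequence at 37.1, -10.3, -13.8 and -28.9 on the second component (22.3% of variance). On the first (52.1%) they stood at -38.5, -20.2, -19.3 and -10.4. The order is thus not particular to these genes, and the labels do not say what the replicate numbers follow. Replicate 4 was the lowest of the 6 libraries for all 7 members and for 12.3% of all genes. The gap to the next library was small for *l(2)efl* (12.2 against 12.4 CPM in w1118 replicate 2). It was also small for *Hsp67Bc* (51.9 against 53.6 CPM in *ft* null replicate 3). The SD of log2 CPM among the mutants was 1.17 to 2.16 in the 5 genes, beside a median of 0.18 over all genes and 1.96% of genes above 1. The libraries are shared by these genes, so the common order is a property of 4 samples and not repeated evidence. Without *ft* null replicate 1 the fit called *Hsp22* (-3.47) and *Hsp67Ba* (-2.02) as well as *Hsp67Bc*, making 3 of 7 members. That fit also called 3.31% of all genes lower, more than the 2.15% with every library in.

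**Figure D2:**
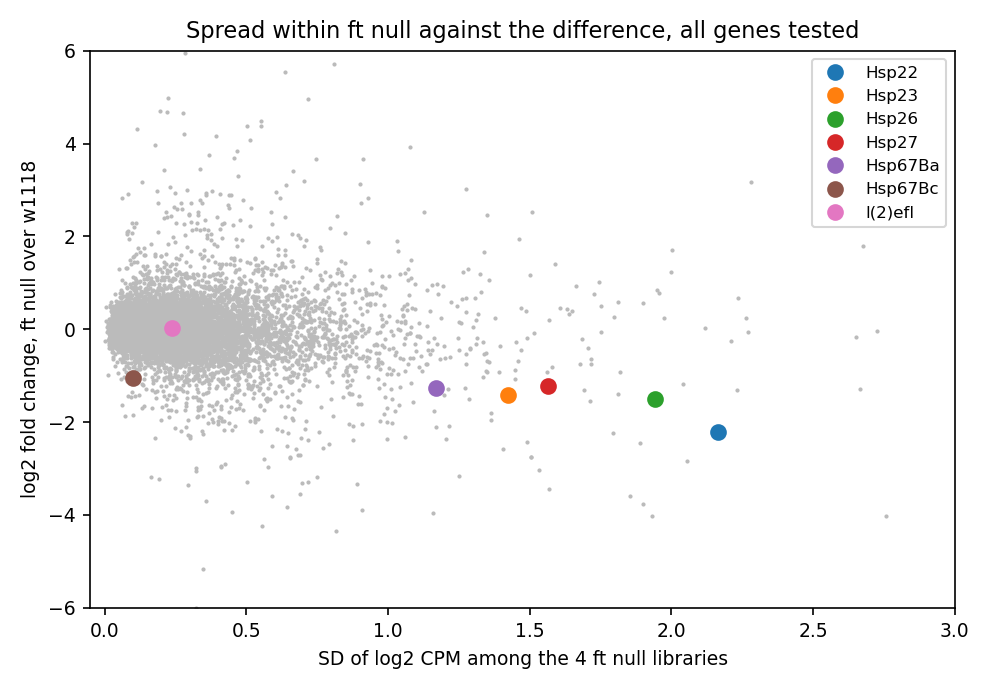
SD of log2 CPM among the 4 *ft* null libraries (x axis) against the log2 fold change of *ft* null over w1118 (y axis) for all genes tested (grey points; 35 lie outside the axes), with the 7 small heat shock genes in colour. *Hsp67Bc* and *l(2)efl* sit at SDs of 0.0997 and 0.237, and the other 5 between 1.17 and 2.16.

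*Hsp67Bc* encodes a cytosolic small heat shock protein that, in flies, works with the BAG-domain co-chaperone Starvin and promotes autophagy of damaged proteins. It stood at 123 and 109 CPM in w1118 and at 59.1, 59.6, 53.6 and 51.9 CPM in *ft* null. The mutant libraries differed by 1.15-fold from highest to lowest, and all lay below both controls by a wide gap. The mean of 56.1 ± 3.86 CPM (SD, n = 4) was 2.07-fold below the control mean of 116 ± 10.2 CPM (SD, n = 2), with a log2 fold change of -1.05 and an SE of 0.111. Its SD of log2 CPM among the mutants, 0.0997, was below that of 78% of all genes tested. The value lay between -1.13 and -0.96 when each library was left out in turn.

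*l(2)efl*, named for the lethal mutations that revealed it, lies away from the cluster on 2R from 23684651 to 23685543 (dm6, minus strand). It stood at 17.6 and 12.4 CPM in w1118 and at 18.0, 14.6, 16.2 and 12.2 CPM in *ft* null. The groups overlapped almost entirely, with means of 15.0 ± 3.66 and 15.3 ± 2.45 CPM. Its log2 fold change of 0.02 (SE 0.204) was the only one of the 7 above 0, and its sign changed with the library left out (-0.20 to 0.30). It shares 75 exon bases with *St3* on the other strand.

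The family's summed level was 1105 and 1149 CPM in w1118 and 823, 526, 207 and 124 CPM in *ft* null replicates 1 to 4, a ratio of means of 0.372. Its make-up, as shares of CPM not corrected for length, shifted with it. *Hsp26* gave 28.9% and 26.8% of the sum in w1118, 31.0% in *ft* null replicate 1 and 10.3% in *ft* null replicate 4. *Hsp67Bc* gave 11.2% and 9.47% in w1118, 7.19% in *ft* null replicate 1 and 42.0% in *ft* null replicate 4, where it was the largest share. *Hsp22* contributed 17.0% and 13.9% in w1118 and 2.23% in *ft* null replicate 4. *Hsp23* kept between 20.9% and 32.1% in every library.

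**Figure D3:**
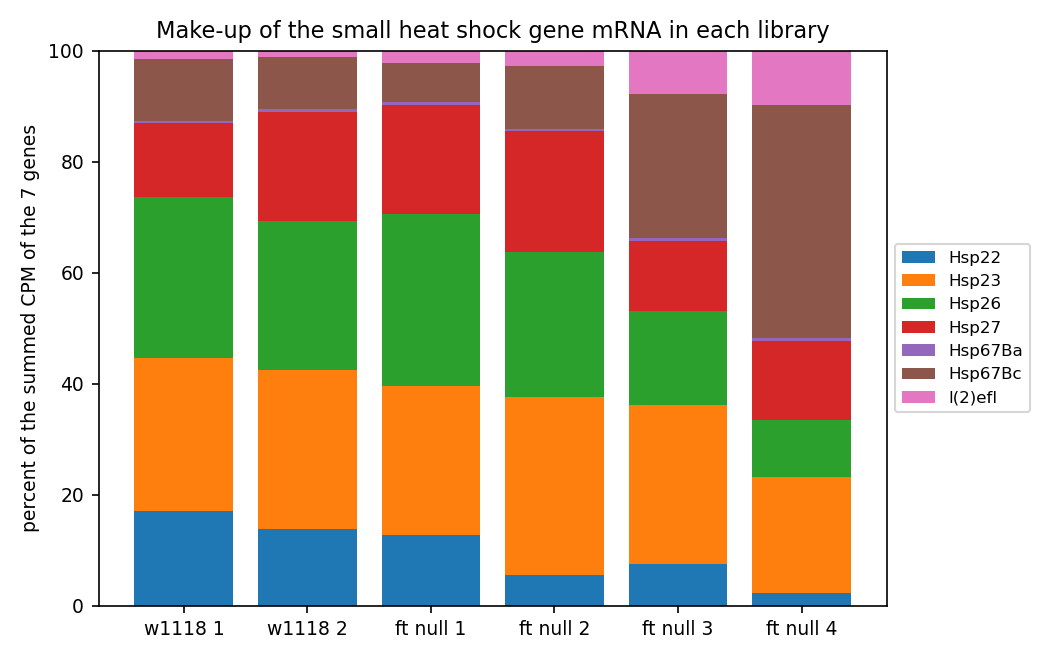
Share of each of the 7 genes in their summed CPM (y axis, percent, stacked to 100) in each of the 6 libraries. The *Hsp67Bc* share is 42.0% in *ft* null replicate 4 and 7.19% in *ft* null replicate 1.

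The 5 genes also differed in how far apart they stood between the same libraries. *ft* null replicate 4 lay below replicate 2 by 10.8-fold for *Hsp26* and 10.6-fold for *Hsp22*. The difference was 6.53-fold for *Hsp23*, 6.52-fold for *Hsp27* and 3.22-fold for *Hsp67Ba*. Accordingly the ratio of *Hsp26* to *Hsp23*, at 1.04 and 0.935 in w1118, was 1.15 in *ft* null replicate 1 and 0.491 in replicate 4. The *Hsp27* to *Hsp23* ratio held 0.442 to 0.73 across all 6 libraries. These ratios have 1 value per library and no error of their own.

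Per kilobase of merged exons, the order of the members in w1118 was *Hsp23* (359 ± 18.8 CPM per kb, SD, n = 2), *Hsp26* (310 ± 8.01), *Hsp67Bc* (118 ± 10.4), *Hsp27* (114 ± 33.9), *Hsp22* (91.7 ± 10.4), *l(2)efl* (20.3 ± 4.94) and *Hsp67Ba* (2.44 ± 0.589). The libraries of *Hsp27* overlapped those of both *Hsp67Bc* and *Hsp22* on this scale, so the order of these neighbours is not settled. In *ft* null replicate 4 the order began with *Hsp67Bc* at 52.6 CPM per kb, followed by *Hsp23* at 29.2 and *l(2)efl* at 16.5. *Hsp22* was at 1.45 in that library. The place of *Hsp22* depends on which transcript was made: it shares 1900 bases with CG4456 in a long transcript, and with its short transcript of 968 bases its w1118 level would be 180 CPM per kb.

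CG4456, the gene also called *Hsp67Bb*, encodes a protein of the rhodanese type and no alpha-crystallin domain, despite its name. All 1900 annotated exon bases of *Hsp22* fall within CG4456 exons on the same strand, so the counts of the pair were divided by a model and their separate levels are uncertain. It stood at 4.65 and 3.16 CPM in w1118 and at 5.08, 6.07, 3.77 and 3.81 CPM in *ft* null. The groups overlapped and the log2 fold change was 0.25 (SE 0.277), while *Hsp22*, assigned reads from the same locus, spanned 2.76 to 188 CPM.

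The 67B members lie between 9371511 and 9385694 on 3L (dm6), a span of 14.2 kb: *Hsp67Bc* (9371511 to 9372497, minus strand), *Hsp22* (9372931 to 9374964, plus), *Hsp26* (9376418 to 9377427, minus), *Hsp67Ba* (9377802 to 9379534, minus), *Hsp23* (9381882 to 9382765, plus) and *Hsp27* (9384063 to 9385694, plus). *Hsp23*, *Hsp26*, *Hsp27*, *Hsp67Ba* and *Hsp67Bc* have no intron in any annotated transcript. Within 20 kb of the span the table holds 17 other genes, 3 of them inside it. Of these 17, 13 were tested and 0 were called by edgeR. asRNA:CR43481, *Klp67A* and *Cpr67B* were at an unadjusted edgeR p under 0.05, with edgeR adjusted p of 0.216, 0.183 and 0.205. The share of all genes under that unadjusted cut was not counted, so nothing is read from such counts here or below. The median log2 fold change of the 13 was -0.01 (range -1.45 to 0.59). The lowest value belonged to asRNA:CR43481 inside the cluster. *Hsp67Bc*, with its even reduction, and *Hsp22*, with the widest spread, are neighbouring members read in opposite directions, and the start of CG4456 lies between them. CG4461, another alpha-crystallin gene inside the cluster, had 9 reads in w1118 replicate 1 and 0 to 2 in each other library and was not tested.

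**Figure D4:**
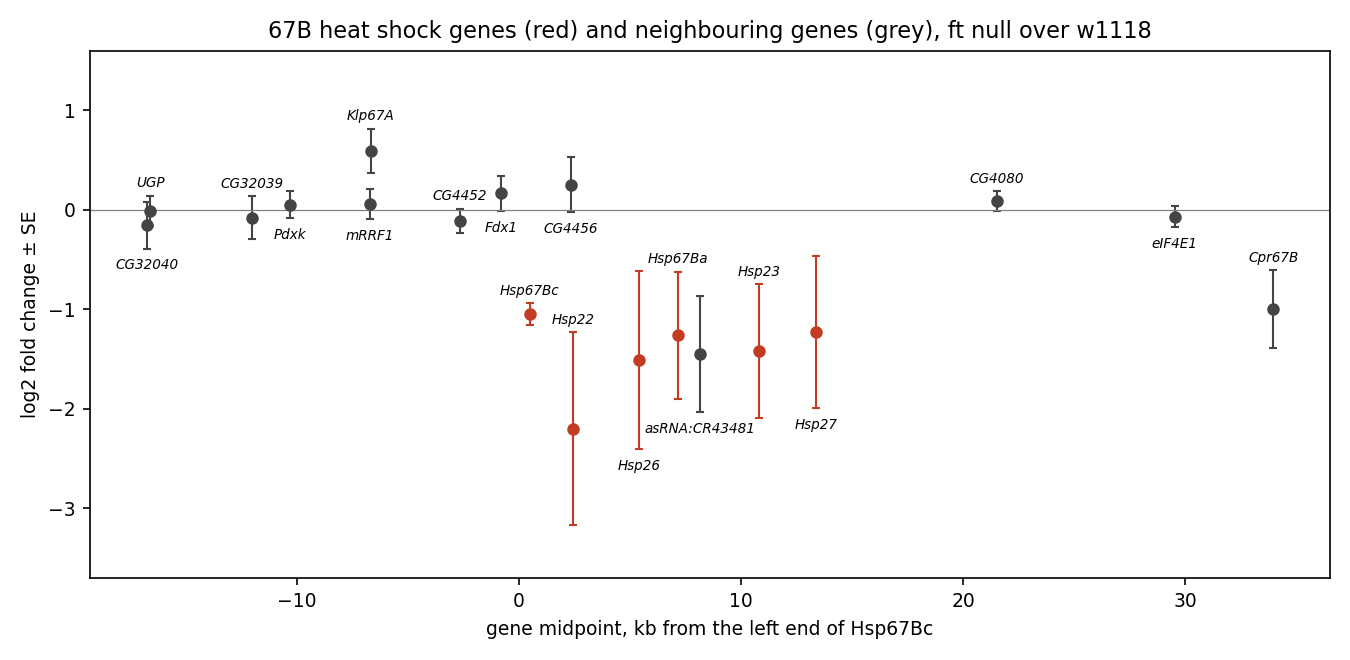
Log2 fold change of *ft* null over w1118 with its SE (y axis) against the gene midpoint in kb from the left end of *Hsp67Bc* (x axis) for the 6 small heat shock genes of the 67B cluster (red) and the other tested genes in and around it (grey). The red points lie between -2.20 and -1.05. Of the grey points, CG4456 (0.25) and asRNA:CR43481 (-1.45) lie inside the cluster, and those outside it lie between -0.996 and 0.595.

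Counting CG4461, 5 alpha-crystallin genes outside the listed family were in the table. CG14207, with the highest CPM of these, stood at 431 and 428 CPM in w1118 and at 324, 375, 368 and 378 CPM in *ft* null. Its mutant values were all lower, with a log2 fold change of -0.25 (SE 0.114), and it was not called (edgeR adjusted p = 0.266). CG7409 ran the other way among the mutants, lowest in replicate 1 at 4.66 CPM and at 11.5, 11.8 and 13.6 CPM in the others, against 18.3 and 17.2 CPM in w1118. CG13133 overlapped between genotypes and CG43851 was at or near 0 throughout. None of the 3 tested genes was called by edgeR, 0 had an unadjusted p under 0.05, and DESeq2 and limma voom called 0.

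Of 9 other heat-inducible genes tested, edgeR called 4 lower (*Hsp70Aa*, *DnaJ-1*, *Hsp68* and lncRNA:Hsromega) and 0 higher, beside 2.15% of all genes called lower, and 5 did not pass. DESeq2 called 4 and limma voom 6. The edgeR count was 8 without *ft* null replicate 1 and 2 without w1118 replicate 1. For 8 of the 9, all mutant values lay below both controls, as for 16.4% of all genes tested, and the unadjusted edgeR p was under 0.05. The exception was *Hsp83*. Several of the 8 are *Hsp70* copies that share reads, so they do not count as 8 separate genes. *Hsp68* and *Hsp70Bb* had the order of the 5 graded genes, from replicate 1 down to 4, and the other 7 did not. The 6 *Hsp70* copies, the inducible partner chaperone, summed to 2496 and 2059 CPM in w1118 and to 922, 138, 192 and 149 CPM in *ft* null. In *ft* null replicate 2 the *Hsp70* sum was at 6.08% of the control mean. *Hsp23*, *Hsp26* and *Hsp27* stood at 53.2%, 43.8% and 61.4% of theirs in the same library. *Hsp22*, at 16.8%, was nearer to *Hsp70* and to *Hsp68* (8.15%) in that library. Between *ft* null replicates 2 and 4 the *Hsp70* sum differed by a ratio of 0.931, beside the 6.53-fold of *Hsp23*. Reads are shared among near-identical *Hsp70* copies by a model, which the sum avoids. The call of *Hsp70Aa* is uncertain for this reason. It held 0 estimated counts in every mutant library and 490 and 137 in w1118, while *Hsp70Ab* held 2005 to 11865 in the mutants. Why *Hsp70Aa* was at 0 was not tested.

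**Figure D5:**
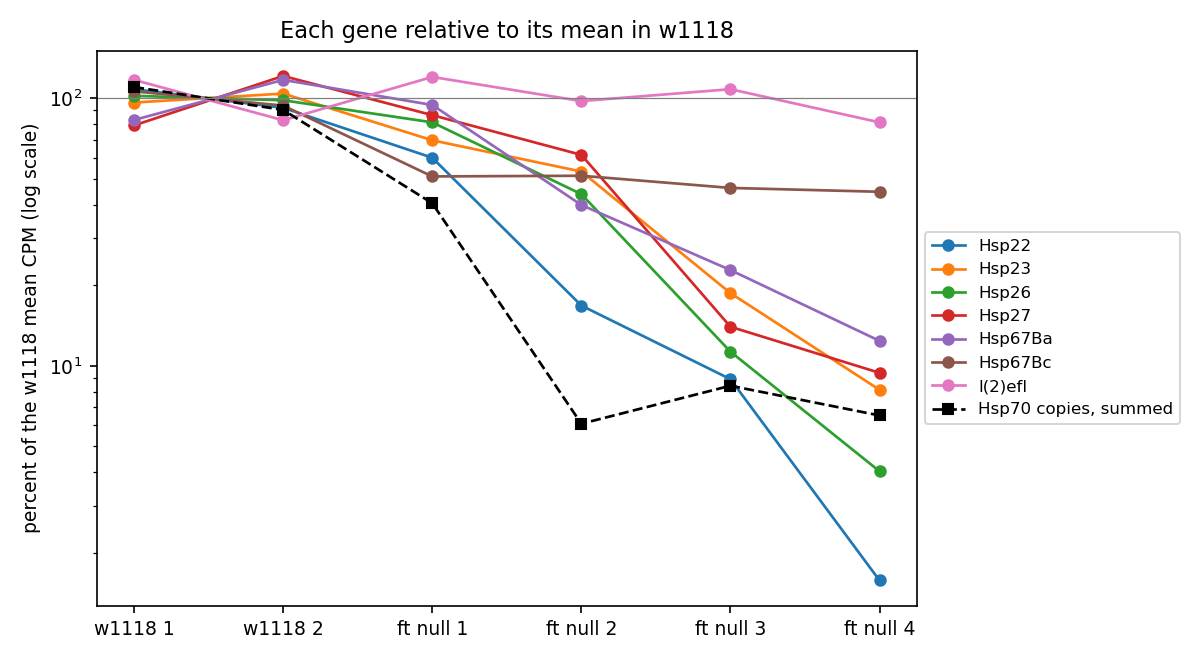
Level in each library as a percent of the gene's own w1118 mean (y axis, log scale) for the 7 small heat shock genes and the summed *Hsp70* copies (dashed); lines join libraries only to guide the eye. In *ft* null replicate 2 the *Hsp70* sum is at 6.08% and *Hsp23* at 53.2%; in *ft* null replicate 4 *Hsp70* is at 6.53% and *Hsp22* at 1.58%.

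*DnaJ-1*, an Hsp40 co-chaperone that hands substrates to Hsp70, and the noncoding heat shock RNA lncRNA:Hsromega were, like *Hsp67Bc*, lower in every mutant library. lncRNA:Hsromega spread 1.20-fold among the mutants and *DnaJ-1* 1.47-fold, beside 1.15-fold for *Hsp67Bc*. *DnaJ-1* fell by 1.16 on the log2 scale, from 87.8 ± 6.08 CPM in w1118 to 39.2 ± 6.26 CPM in *ft* null (edgeR adjusted p = 0.00565). This call was lost without w1118 replicate 1. lncRNA:Hsromega, chosen after its values were seen, dropped by 0.895 on that scale, from 703 ± 46.0 to 378 ± 29.1 CPM (edgeR adjusted p = 0.00578). *Hsp68* no longer passed in 4 of the 6 fits that left out a library (highest adjusted p of edgeR 0.149): those omitting a control, or *ft* null replicate 2 or 3. *Hsp83*, the Hsp90 gene, ranged from 1080 to 3590 CPM in the mutants and from 1240 to 2740 CPM in the controls and did not pass.

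None of 10 genes of heat shock gene transcription passed in edgeR, with 1 lower at an unadjusted p under 0.05 and 1 called by DESeq2. That gene was *Hsf*, chosen after its values were seen, at 182 and 161 CPM in w1118 and 134, 104, 103 and 89.6 CPM in *ft* null (log2 fold change -0.67, edgeR adjusted p = 0.0616). Its mutant values lay below both controls, and it passed without *ft* null replicate 1. *Spt6*, the member of that list with the highest level, had a log2 fold change of 0.25. None of 8 partner genes passed in edgeR. *stv*, *ref(2)P* and *mrj* were lower at an unadjusted p under 0.05, and *ref(2)P*, an autophagy receptor gene, was called by DESeq2. *Hsc70-4*, the constitutive Hsp70 of the cytosol, was at 5770 to 7490 CPM in the mutants and 5780 and 6200 CPM in the controls. *stv*, which encodes Starvin, stood at 240, 237, 205 and 236 CPM against 256 and 356 CPM. Of 4 mitochondrial chaperone and protease genes tested, where *Hsp22* would act, 0 were called by any of the 3 tools. In that list 0 had an unadjusted p under 0.05, and *Hsp60A* had a log2 fold change of 0.29. The replicate order of the 5 graded genes was also seen in these lists. It held for 2 of the 10 transcription genes, *Hsf* among them, for 1 of the 8 partners (*Hsc70-4*) and for 1 of the 4 mitochondrial genes (*Hsp60A*).

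Of 12 genes of the ecdysone response, edgeR called 1 lower and 11 did not pass, while DESeq2 called 2. The edgeR call was *Eip93F*, a late hormone-response transcription factor gene, at 2.60 and 2.93 CPM in w1118 and 0.586 to 0.95 CPM in *ft* null (log2 fold change -1.89, edgeR adjusted p = 0.00998), and it was lost without either control. DESeq2 also called *Eip75B*, a nuclear receptor gene (DESeq2 adjusted p = 0.0156, edgeR adjusted p = 0.0684), at 122, 114, 103 and 123 CPM in *ft* null and 146 and 197 CPM in w1118. *EcR*, the hormone receptor gene, was at 150 to 160 CPM in the mutants and 145 and 171 CPM in w1118. *ImpE2*, an ecdysone-inducible gene chosen after its values were seen, stood at 473 CPM in *ft* null replicate 1 and 155 to 244 CPM in the other mutants. This library, highest among the mutants in the 5 graded genes, was thus also the highest here. *Hr4* was likewise highest in it among the mutants, at 162 CPM, but *Hr39* was lowest in it, at 32.6 CPM. Of the 12 genes, 0 had the replicate order of the 5 graded genes. Whether these genes move with embryo age was not tested.

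None of the 13 muscle genes or of the 7 germline and maternal genes tested had the replicate order of the 5 graded genes. The 13 muscle genes summed to 44760, 52940, 49180 and 54670 CPM in *ft* null replicates 1 to 4 and to 52980 and 59330 CPM in w1118, with 0 called by edgeR and *Act57B* at the highest CPM. *Act87E*, *bt* and *sls* were lower at an unadjusted p under 0.05, and DESeq2 called these 3. The 8 germline and maternal genes summed to 419 to 506 CPM in the mutants and 372 and 479 CPM in the controls, nearly all of it from *tud*, while *nos*, *osk* and *pgc* stayed under 4 CPM in each library. Of the 7 tested, 0 were called by any of the 3 tools or had an unadjusted p under 0.05. *bcd*, a maternal gene also among the early embryo genes, stood at 5.56, 5.70, 0.126 and 1.43 CPM in *ft* null and at 4.68 and 0.55 CPM in w1118. It was thus higher in *ft* null replicates 1 and 2 than in 3 and 4. Unlike the graded genes, it was lowest in replicate 3, on 3 estimated counts, and its 2 controls also lay far apart. Its spread among the mutants exceeded that of 99.8% of genes. *piwi*, of the same list, ran the other way, at 4.09, 4.7, 5.53 and 6.01 CPM in *ft* null replicates 1 to 4. The part of these muscle, germline and maternal genes in the results above was not tested.

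The genes whose centred log2 CPM profile over the 6 libraries came closest to each member were found by the root mean square (RMS) difference among 9789 other genes. For *Hsp22* they were *Hsp70Bb*, *Hsp68* and *Hsp70Bc*, at 0.814 to 0.882 log2 units. The gene's own range from highest to lowest library was 6.05, which is not the same measure as an RMS difference. *Hsp26* was nearest to *Hsp70Bb*, CG32857 and *Hsp68* (0.843 to 0.94). *Hsp23* was nearest to CG32857, *AsnS*, the asparagine synthetase gene, and *tal-AA* (0.615 to 0.71), and *Hsp27* to *AsnS*, CG32512 and CG32857 (0.802 to 0.857). *Hsp67Ba* was nearest to *AOX2*, *tal-AA* and CG13748 (0.546 to 0.595). *Hsp67Bc* had much closer neighbours: *SPE*, a protease gene of the Toll pathway, CG7737 and lncRNA:CR44133 lay 0.0909 to 0.11 from it against a range of 1.25. *SPE*, at 35.8 and 35.9 CPM in w1118 and 16.7 to 18.3 CPM in *ft* null, shared its even reduction. *l(2)efl* was nearest to CG12713, CG4951 and *Nup154* (0.0438 to 0.0548), all of which overlapped between genotypes.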

How the data were processed

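RNA-seq libraries from 4 *ft* null and 2 w1118 embryo samples were compared. The deposited file holds estimated counts per gene without normalization, and 29.65% to 36.12% of its values in a library are not whole. Per the submitters' processing notes, the tools were FastQC 0.10, Trimmomatic 0.33, Salmon 1.80 and edgeR, and the build was dm6. The annotation used is not given in the sources used here. Per the labels' protocols, the SMARTer Ultra Low kit made the cDNA, and it marks neither strand nor molecules.

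Here the estimated counts were rounded, filtered with filterByExpr, scaled by TMM and fitted in edgeR 4.0.16 (R 4.3.3) by quasi-likelihood with genotype as the one term. Adjustment was by Benjamini-Hochberg over 11542 genes, with calls under 0.05. SE is the log2 fold change over the square root of F, and log2 CPM used a prior count of 2. DESeq2 1.42.0 and voom (limma 3.58.1) were alternatives, and all 3 were tested on simulated data. Positions and exon lengths come from Ensembl 115 in dm6 coordinates. With no separate collections stated, p-values describe only the variation among these libraries, which may be technical.

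Named genes are the members, genes within 20 kb of the 67B members, up to 2 called genes with the smallest p (or else the one with the highest CPM) of each list, and the 3 nearest profiles per member at an average log2 CPM of at least 1; every other gene given by name was chosen after its values were seen. Members and lists were chosen with earlier results of these data known. Of the lists' other symbols, *ClpX* did not match the table.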

Additional observations from a re-analysis of the deposited data

Results flagged for a closer look

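Among 103 named genes with a mean of at least 1 CPM in *ft* null, 9 had 1 mutant library standing apart by Dixon's criterion, which chance gives in about 1 of 20 groups; none of the 7 small heat shock genes was among them. The gap to the nearest library, as a share of the range, was 0.881 for *Hsp70Bb*, 0.949 for *Hsp70Bc*, 0.898 for *Hsp70Ab* and 0.927 for *Hsp70Bbb*, each with *ft* null replicate 1 high. Those copies share reads and are not independent. It was 0.874 for *ple* with the same library high and 0.843 for CG32040 with it low. *ft* null replicate 3 was low for *stv* (0.883) and *EcR* (0.855), and *ft* null replicate 4 was low for CG32857 (0.855).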

How the results depend on the processing

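*Hsp67Bc* was called in all 11 alternatives, and *Hsp22*, *Hsp23*, *Hsp26*, *Hsp27* and *Hsp67Ba* stayed below 0 in each of them. The alternatives reuse the libraries on which the family was chosen, so this describes the processing and carries no test. *l(2)efl*, not called anywhere, turned to -0.0026 in limma voom and ranged from -0.20 to 0.30 with a library left out. Members called were 1 to 3 with a library left out and 2 with the replicate block (replicates 1 and 2 only, *Hsp22* added). Nothing in the labels pairs same-numbered libraries, whose deviations correlated at 0.153 and -0.0407 over genes. Genes called overall were 970 in DESeq2, 173 to 806 with a library left out, 493 with the replicate block and 248 in the same 4 libraries with no block, a fit chosen after seeing the data. Other pathway genes called were 5, but 11 in DESeq2, 2 to 12 with a library left out and 2 in the 4 libraries with no block. Leaving out a library moved the family's median log2 fold change between -1.91 and -1.01 and its summed ratio between 0.253 and 0.46. Dropping a control leaves 1, assumed to vary like the mutants. The pathway lists other than the members hold 70 genes of the table, and the main fit called 496 of all 11542 genes tested. The 11 pathway genes in DESeq2 and the 12 without *ft* null replicate 1 came with 970 and 806 calls among all genes. The 2 in the 4 libraries with no block came with 248. With the replicate block, 7 pathway genes were called, beside 493 among all genes. The causes were not tested. Of the 21 nearest-profile genes, 20 were shared with a prior count of 0.5. The shortest transcript was another choice made after seeing the data. With it, w1118 levels per kb moved to 180 for *Hsp22*, 153 for *Hsp27*, 327 for *Hsp26* and 9.14 for CG4456. The lowest library of *Hsp67Ba* rested on 15 counts, and the SEs of the 5 graded genes ran from 0.638 to 0.972.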
